A study of Homo sapiens with 4 samples.

Results

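RNA polymerase I (Pol I) and the factors that bring it to the ribosomal RNA genes were followed in HEK-293 cells, an adenovirus-transformed human embryonic kidney line, after siRNA treatment against the zinc-finger genes ZSCAN5A or ZSCAN5B. The 10 genes were chosen by name, not by their values, though earlier results of these data were known. POLR1A, POLR1B, POLR1C, POLR1D and POLR1E stand for polymerase subunits, and UBTF and RRN3 for initiation factors. TAF1A, TAF1B and TAF1C stand for subunits of the promoter selectivity factor SL1. Each of the 10 had 1 row of the 24934 in the expression table. All 10 passed the filter of at least 1 FPKM (fragments divided by transcript length and by library size) in at least 1 library. Cells received 10 nM siRNA for 48 h, and poly(A) RNA was sequenced in 4 libraries. The siRNAs si4 and si5, of different sequence, target ZSCAN5A; si1 targets ZSCAN5B; the control cells received a scrambled siRNA. Each library is a single one, the same control served every comparison, and si4 and si5 are separate designs rather than replicate cultures of 1 treatment. Ratios are therefore given without p-values.

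Pol I transcribes the repeated rDNA units into the precursor of the 18S, 5.8S and 28S rRNAs, and the rate of this step follows cell growth. UBTF, an HMG-box protein, covers the active repeats, SL1 binds the core promoter, and RRN3 links SL1 to the polymerase so that initiation can begin. POLR1C and POLR1D are also subunits of RNA polymerase III (Pol III), so the label of Pol I specific subunit does not hold for them. The rRNA itself was outside this measurement: the row of its precursor, RN45S, named after its values were seen, was listed at 0 FPKM in all 4 libraries.

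The 3 siRNA target sites are shown because they define the treatments; the capitals mark the 7 target bases read by bases 2 to 8 of the guide strand, the seed.
si4: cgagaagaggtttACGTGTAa
si5: aagctagtcatccACAAGAGa
si1: acgtgtgcaataaATCATTTa
In GRCh37 (hg19) the si4 site lies at chr19:56733332-56733352 and the si5 site at chr19:56733307-56733327, both on the minus strand in the coding part of exon 6, the last exon of ZSCAN5A. The si1 site lies at chr19:56701591-56701611 on the minus strand, in the coding part of exon 5, the last exon of ZSCAN5B. Among the 3′ UTRs of the 10 genes, the seed site of si1 occurred only in POLR1B, against 20.5% of 12006 genes. Those of si4 and si5 occurred in 0 of the 10, against 2.84% and 10.3% of genes. ZSCAN5A stood at 0.730 FPKM with si4 and 0.713 with si5, against 2.53 with si1 and 2.42 in the control. ZSCAN5B was near the detection limit throughout, at 0.0903 FPKM in the control, 0.0948 with si1, 0.0331 with si4 and 0.0663 with si5. By FPKM its targeted library was therefore the highest of the 4, and si1 is called here the library labelled ZSCAN5B knockdown. At this level FPKM cannot show whether the knockdown worked. The paper reported lower ZSCAN5B transcript by quantitative RT-PCR and lower protein by western blot with si1. Its RT-PCR also gave lower levels of the related gene ZSCAN5D with si4 and si5, and a smaller fall with si1, which the paper described as specific. With si4 that RT-PCR put ZSCAN5B above the control, opposite in direction to the FPKM.

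HEK-293 cells expressed the line's markers VIM, NEFM, NEFL and LIN28B at 8.46 FPKM or more in every library and PAX2 at 0.584 to 1.16 FPKM, while PTPRC, ALB, HBB and KRT5, markers of blood, liver, red cells and epidermis, did not exceed 0.0335 FPKM. Sequencing depth was recovered as relative values: si4 had 1.09 times, si5 1.54 times and si1 1.02 times the fragments of the control. The control stood apart in its summed FPKM, 488036 against 537181 to 546239 in the others, and this bears on every direction given below.

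The 10 genes spanned a 17.2-fold range of levels (FPKM, averaged over the 4 libraries), from 78.9 for POLR1D to 4.57 for TAF1A. In descending order they stood as POLR1D, POLR1C, UBTF, RRN3, TAF1B, POLR1B, POLR1E, POLR1A, TAF1C and TAF1A. Neighbours whose 4-library ranges overlapped, and whose order is thus not set, were POLR1C with UBTF, POLR1B with POLR1E, and POLR1A with TAF1C. Within a gene the highest library exceeded the lowest by 1.08-fold, for RRN3, to 1.32-fold, for TAF1A. The large catalytic subunits were thus listed well below the small assembly subunits that Pol III shares.

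**Figure D1:**
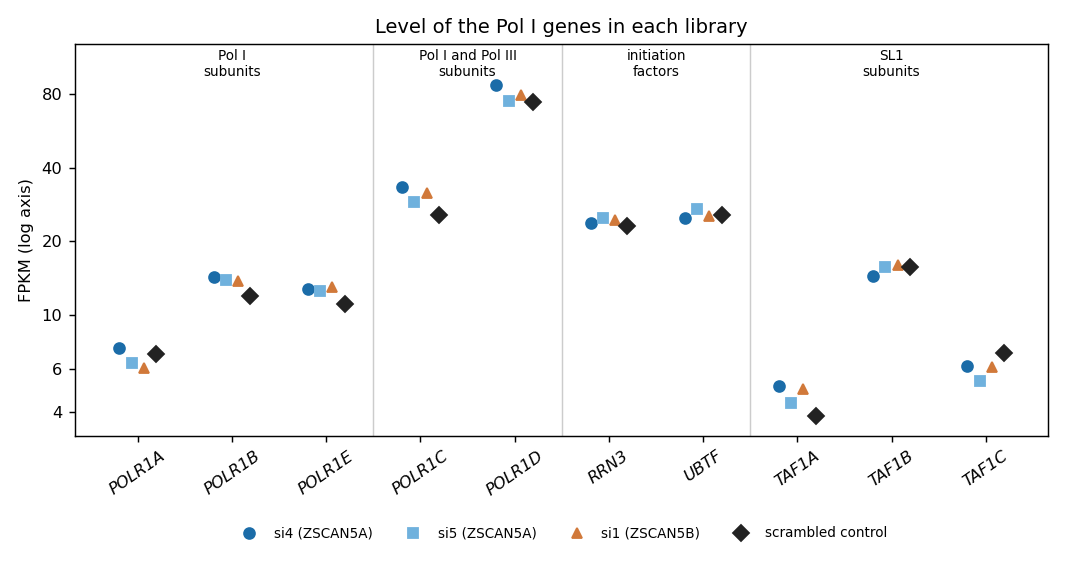
FPKM (log axis) of the 10 Pol I genes in the 4 libraries, 1 symbol per library, grouped by role. Levels run from 3.87 FPKM (TAF1A, control) to 87.2 FPKM (POLR1D, si4), and the spread between libraries is small beside the spread between genes.

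Every one of the 10 genes stayed within 1.5-fold of the control in both comparisons. For the mean of si4 and si5, 0 of 10 genes passed, against 3.79% of 12993 genes tested. For the library labelled ZSCAN5B knockdown, 0 of 10 passed, against 4.01% of 12921 genes. At shares this low, 0 of 10 does not set these genes apart from all genes. As deposited, the largest differences (log2 of the FPKM ratio to the control) were both for TAF1A. They were 0.29 for the mean of si4 and si5 and 0.36 for si1. The members' median log2 ratio was 0.11 for si4 and si5 and 0.10 for si1. The corresponding all-gene medians were -0.02 and -0.01, and the 10th to 90th percentiles of all genes were -0.37 to 0.25 and -0.37 to 0.27.

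Whether these genes as a group stood above or below the control depended on how the libraries were scaled. Of the scalings tried, only that to equal summed FPKM, chosen after seeing the data, put the group's medians below the control. With FPKM as deposited, 7 of the 10 were higher than the control in each comparison, against 46.7% of all genes with si4 and si5 and 48.5% with si1. With median-ratio scaling 8 were higher in each, against 53.4% and 52.1% of all genes. With upper-quartile scaling 8 and 7 were higher, against 50.7% and 50.3%. After scaling to an equal summed FPKM the count was 4 of 10 in each, against 21.2% and 25.95% of all genes, and the group's medians turned to -0.05 and -0.04, while the all-gene medians moved to -0.18 and -0.15. Relative to the all-gene median, the group stood 0.13 higher with si4 and si5 as deposited and 0.13 higher with the summed-FPKM scaling. For si1 the offset was 0.10 as deposited and 0.11 with that scaling.

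In 6 of the 10 genes (POLR1B, POLR1C, POLR1D, POLR1E, RRN3 and TAF1A) the control was the lowest of the 4 libraries, against 30.1% of 12983 genes. In 1 gene, TAF1C, it was the highest, against 36.2% of genes. With equal summed FPKM, POLR1B, POLR1C, POLR1E and TAF1A kept the control as the lowest, 4 of 10 against 11.1% of genes, and 5 of 10 had it as the highest, against 62.5%. The mean of si4 and si5 lay farther from the control than si4 lay from si5 in 6 of 10 genes, close to the 58.2% of 12965 genes for which this held. The median size of the log2 difference was 0.16 for the mean of si4 and si5 against the control and 0.17 between si4 and si5, so over the group the siRNAs against 1 gene lay about as far from each other as from the control. Over all genes these values were 0.16 and 0.11.

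**Figure D2:**
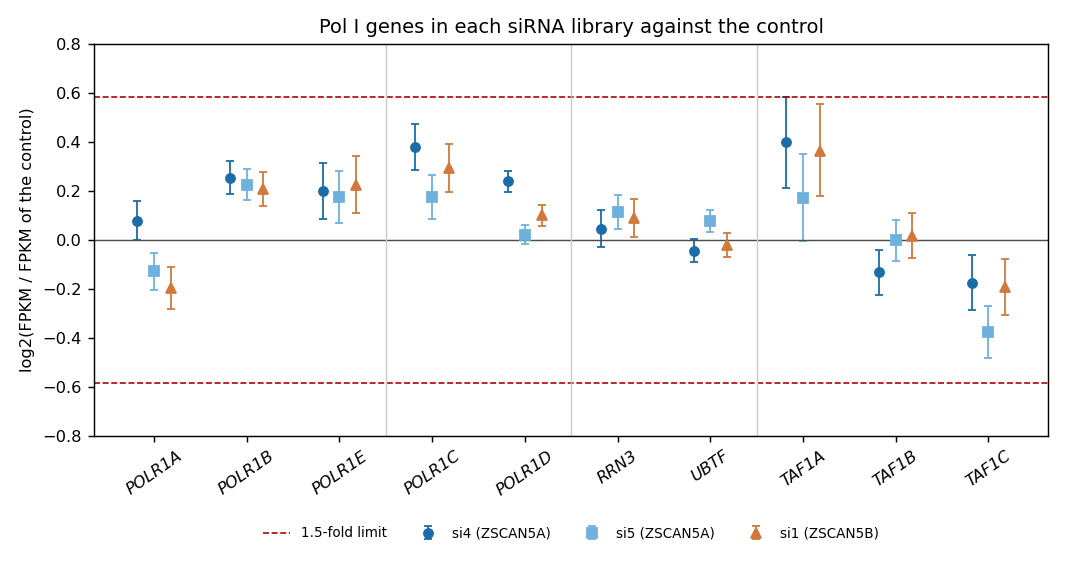
Log2 of the FPKM ratio to the control for each siRNA library, 1 symbol per library; bars are 95% Clopper-Pearson intervals from estimated fragments and cover counting error only. All points lie within the dashed 1.5-fold limits, and TAF1A with si4 is the highest at 0.40 and TAF1C with si5 the lowest at -0.38; with equal summed FPKM all points would lie lower, by about the shift of the all-gene medians.

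Among the subunits that Pol III does not share, POLR1B and POLR1E were higher than the control in all 3 siRNA libraries and POLR1A was not. POLR1A (chr2:86253451-86333278, hg19, minus strand), the largest subunit, which holds much of the active site, stood at 7.31 FPKM with si4, 6.33 with si5 and 6.04 with si1, against 6.92 in the control. Its siRNA libraries lay on both sides of the control, and its log2 ratio was -0.02 for the mean of si4 and si5 and -0.20 for si1. With a correction by transcript length and GC content these became 0.25 and 0.06, and median-ratio or upper-quartile scaling also gave the first of them a positive sign. The correction subtracts the median log2 ratio of genes alike in length and GC content. For genes like POLR1A this median was -0.27 for si4 and si5 and -0.25 for si1. For genes like POLR1C it was 0.13 and 0.16, so ratios to this control followed length and GC content. POLR1B (chr2:113299492-113334727, plus strand), the second-largest subunit, stood at 14.2, 13.9 and 13.8 FPKM with si4, si5 and si1, against 11.9 in the control. All 3 siRNA libraries were above the control and close to one another, and the log2 ratios were 0.24 for si4 and si5 and 0.21 for si1. POLR1E (chr9:37485945-37503693, plus strand), the PAF53 subunit, which pairs with CD3EAP on the face of the enzyme, stood at 12.7, 12.5 and 12.97 FPKM, against 11.1 in the control. The siRNA libraries again lay close together above it, with log2 ratios of 0.19 and 0.23. The length and GC correction gave 0.17 and 0.19. For POLR1B and POLR1E the siRNA libraries stayed above the control under every scaling tried.

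The subunits shared with Pol III, which form the assembly platform of both enzymes and are mutated in Treacher Collins syndrome, were higher than the control in every siRNA library as deposited. POLR1C (chr6:43484777-43489246, plus strand) stood at 33.4 FPKM with si4, 29.0 with si5 and 31.5 with si1, against 25.7 in the control, log2 ratios of 0.28 and 0.29. With the length and GC correction these were smaller, 0.15 and 0.13, and the sign was positive under every setting tried. POLR1D (chr13:28194880-28241559, plus strand) stood at 87.2, 75.03 and 79.3 FPKM, against 73.9 in the control, log2 ratios of 0.13 and 0.10. Its si5 library was within 1.02-fold of the control, the length and GC correction gave 0.09 and 0.02, and with equal summed FPKM both ratios turned negative.

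The initiation factors were followed next. UBTF (chr17:42282401-42298994, minus strand) stood at 24.9 FPKM with si4, 27.1 with si5 and 25.3 with si1, around 25.7 in the control. Its log2 ratios were 0.02 and -0.02, and their sign changed with the siRNA or the scaling. The length and GC correction gave 0.15 and 0.10. Of its transcript, 3.02% of the windows of read length are shared with an antisense lncRNA. RRN3 (chr16:15153879-15188158, minus strand) stood at 23.7, 24.9 and 24.4 FPKM, against 23.0 in the control, log2 ratios of 0.08 and 0.09 that became 0.03 and 0.01 with the length and GC correction and turned negative with equal summed FPKM. RRN3 has partial copies on chromosome 16: of the 2028 windows of 101 bases in its transcript, 34.96% also occur in transcripts of other genes. The most, 25.9%, lie in an unnamed gene (ENSG00000284671), followed by 22.9% in RRN3P2, 10.9% each in RRN3P1 and in the unnamed ENSG00000291066, and 6.95% each in RRN3P3 and CDR2, and a window can occur in several of these. Reads from these stretches could be assigned to either locus, so its level is uncertain. The copies were listed at 1.63 to 3.05 FPKM and differed little between libraries, RRN3P1 at 3.05 FPKM in the control and 2.80 to 2.91 in the siRNA libraries. UBTFL1, a retrocopy of UBTF, was listed at 0 in all 4 libraries.

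The 3 TAF subunits of SL1, which sit together on TBP at the rDNA promoter, lay on both sides of the control. TAF1A (chr1:222731244-222763275, minus strand) stood at 5.10 FPKM with si4, 4.35 with si5 and 4.98 with si1, against 3.87 in the control. It held both the highest ratios and the fewest estimated fragments, 411 in the control, and its log2 ratios were 0.29 for si4 and si5 and 0.36 for si1. TAF1B (chr2:9983571-10074545, plus strand), a TFIIB-like subunit, stood at 14.4, 15.7 and 15.9 FPKM, against 15.7 in the control. Its log2 ratios were -0.07 and 0.02, or -0.15 and -0.11 with the length and GC correction. TAF1C (chr16:84211453-84220676, minus strand) stood at 6.18 FPKM with si4, 5.37 with si5 and 6.11 with si1, against 6.98 in the control. It was the only member below the control in all 3 siRNA libraries as deposited, with log2 ratios of -0.27 and -0.19. The length and GC correction gave -0.17 and -0.10, and the sign was negative under every setting tried. Of its transcript windows, 8.201% are shared with DNAAF1 on the opposite strand, which was listed at 0.0460 to 0.106 FPKM, and the sources used here do not state whether strand was used in counting.

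For most members the differences between libraries exceeded counting error. From 411 to 12788 fragments were estimated per member and library, and the 95% intervals of the ratio to the control lay above 1 for 5 members, below 1 for 2 and included 1 for 3 with si4, with the same counts for si5. With si1 they lay above 1 for 6, below for 2 and included 1 for 2. The share over all genes was not computed, so these counts cannot be called high or low, or particular to the members. The intervals used FPKM as deposited, and with equal summed FPKM every ratio to the control would be lower. The interval of the ratio of si4 to si5, which target the same gene, excluded 1 for 8 of the 10 members, again without a share over all genes. Counting intervals therefore do not stand in for the spread between cultures. limma was run on log2(FPKM + 1) with si4 and si5 as the 2 samples of 1 group. Its only measure of spread was the difference between si4 and si5, which are separate designs. The single control library gave no measure of spread between control cultures, so its p-values and calls are not given.

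Set directly against each other, the siRNAs to the 2 targets left the 10 genes close together. The mean of si4 and si5 differed from si1 by a log2 ratio between -0.08, for TAF1B, and 0.17, for POLR1A. The median was -0.01 and the median size 0.04, against a size of 0.09 over all genes past the filter of 1 FPKM. No comparison with genes of matched level was made. Between si4 and si5 the members' median size was instead above that of all genes, 0.17 against 0.11. In the direct comparison 0 of 10 members passed the 1.5-fold limit, against 1.31% of 12888 genes. That share is too low for 0 of 10 to set the members apart. This comparison does not involve the control library.

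The other components of the Pol I machinery were all higher than the control as deposited, taking si4 and si5 by their mean. TWISTNB, the subunit RPA43 that contacts RRN3, stood at 14.8 FPKM with si4, 15.0 with si5 and 16.4 with si1, against 11.6 in the control, log2 ratios of 0.36 and 0.50. Each siRNA library lay above the control, and in each of these comparisons the ratio was higher than that of any of the 10 members. With si4 alone TAF1A, at 0.40, and POLR1C, at 0.38, stood above TWISTNB, at 0.35. ZNRD1, a small subunit with a role in RNA cleavage, stood at 35.9, 32.7 and 38.1 FPKM, against 30.1. TAF1D, the remaining SL1 TAF, stood at 20.3, 19.04 and 20.3 FPKM, against 16.4. CD3EAP, the partner of POLR1E, stood at 4.86, 3.58 and 3.71 FPKM, against 3.61, so that only si4 was set apart. TBP, which serves all 3 polymerases, stood at 18.1, 16.6 and 16.9 FPKM, against 16.5. The median of these 5 genes was 0.22 for si4 and si5 and 0.31 for si1, and 0 passed the 1.5-fold limit.

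The 5 subunits common to Pol I, II and III gave medians of 0.25 and 0.29, with 0 past the limit and all 5 higher than the control in both comparisons. The correction by length and GC content was not made for this or any other related group. Their log2 ratios ran from 0.10 for POLR2H to 0.32 for POLR2F with si4 and si5, and from 0.16 for POLR2L to 0.41 for POLR2F with si1. Both this group's and the previous group's medians stayed positive with equal summed FPKM, at 0.09 and 0.15 for the common subunits and 0.07 and 0.17 for the other Pol I components.

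Of 18 regulators of rDNA and nucleolar partners, 1 passed the limit. BAZ2A, the TIP5 subunit of the NoRC complex that silences rDNA repeats, stood at 9.87 FPKM with si4, 11.0 with si5 and 9.17 with si1, against 17.0 in the control, and fell by 0.70 and 0.89 on the log2 scale. The group's medians were 0.10 and 0.13. The lowest of the others was MYBBP1A, a nucleolar repressor, at -0.25 and -0.15. The highest with si4 and si5 was CIRH1A, a small-subunit processome protein, at 0.36, with 0.29 for si1. MYC, which drives ribosome biogenesis genes, was the highest with si1, at 0.37, but not with si4 and si5, at -0.07. It stood at 20.4, 16.8 and 25.2 FPKM with si4, si5 and si1, against 19.5 in the control.

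**Figure D3:**
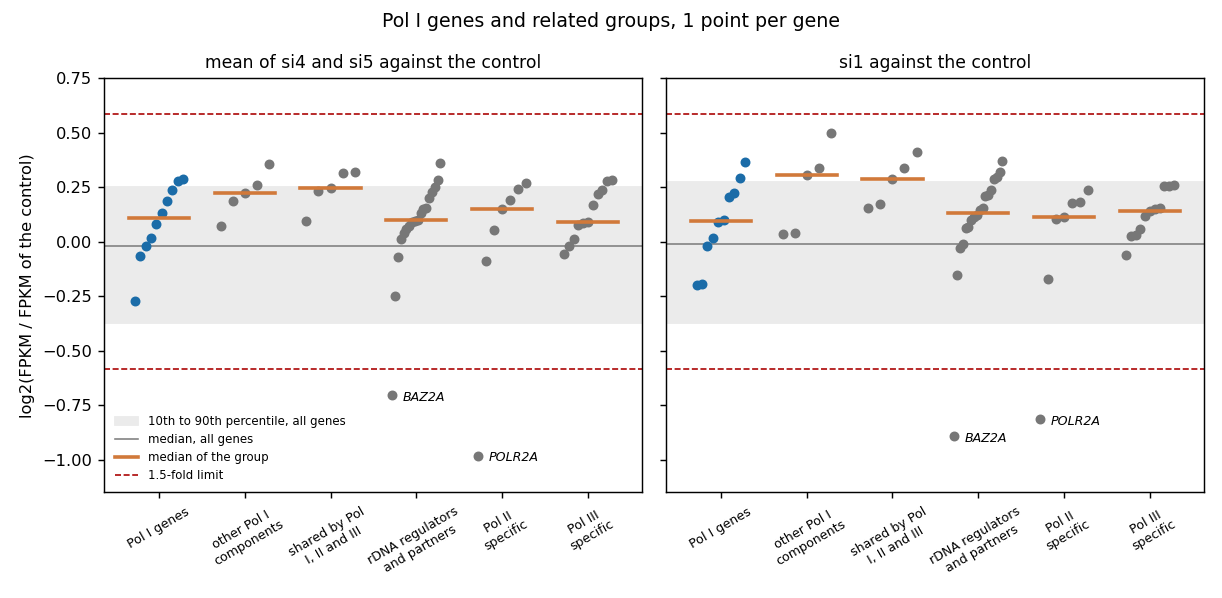
Log2 of the FPKM ratio to the control, 1 point per gene, for the 10 Pol I genes (blue) and 5 related groups; the left panel is the mean of si4 and si5, the right panel si1. Orange bars are group medians, the grey band spans the 10th to 90th percentile of all genes, and BAZ2A and POLR2A are the points beyond the dashed 1.5-fold limits; with equal summed FPKM all points would move down, and the medians of the Pol I genes would lie below 0.

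The catalytic subunits of the 3 polymerases were set side by side. POLR2A, the largest subunit of RNA polymerase II, stood at 14.0, 14.9 and 16.2 FPKM with si4, si5 and si1, against 28.5 in the control, and fell by 0.98 and 0.81 on the log2 scale. It was the only 1 of 7 subunits specific to Pol II past the limit. The POLR2A transcript has 6304 bases and that of BAZ2A 8831. Neither was corrected for length and GC content, and how far their falls follow these was not tested. POLR1A, at -0.02 and -0.20, and POLR3A, at -0.02 and 0.06 (13.8, 12.6 and 13.9 FPKM, against 13.3), did not pass. The second-largest subunits lay within a narrow band: POLR1B at 0.24 and 0.21, POLR2B at 0.05 and 0.18 and POLR3B at 0.08 and 0.14. Of 11 subunits specific to Pol III, 0 passed the limit, with medians of 0.09 and 0.14, from -0.05 for POLR3E to 0.28 for POLR3K with si4 and si5 and from -0.06 for POLR3GL to 0.26 for POLR3K with si1.

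**Figure D4:**
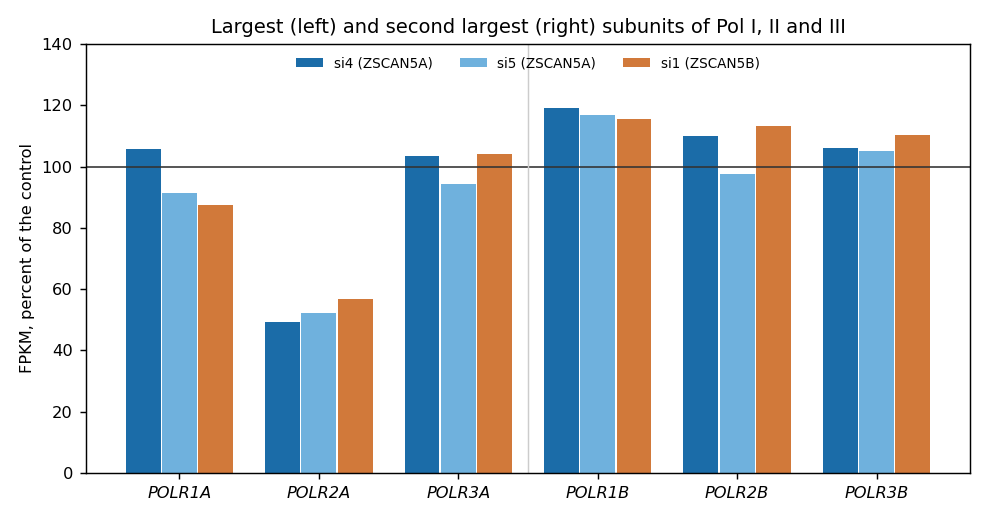
FPKM of the largest and second-largest subunits of the 3 polymerases as percent of the control (line at 100), 1 bar per siRNA library. POLR2A, at 49.2 to 56.9 percent, stands apart from the other 5 genes, which lie between 87.3 and 119 percent.

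The start regions of these genes were read for sequence that the choice of genes did not use. RefSeq promoters (GRCh38.p14, 250 bases before to 50 bases after the start) were held for 9 of the 10 genes, with POLR1E not among them. The letters CCGGAAG, the core of sites for ETS-family activators, occurred on either strand in 6 of the 9, POLR1B, POLR1C, RRN3, TAF1A, TAF1B and TAF1C, against 22.7% of 10075 expressed genes. The match nearest the start in each of the 6 is shown in 30 bases, on the strand of the gene, with matches in capitals.
POLR1B: ctgcggccactaCTTCCGGcgtgtaccgag
POLR1C: acaaaagcaaCTTCCGGAAGctggggacgt
RRN3: tggcacgcgcaaCTTCCGGgacagaggctg
TAF1A: ttccagaagtcaCTTCCGGggtcgaggcga
TAF1B: ctccagcctttcCCGGAAGctgcgctcgct
TAF1C: aggcaCTTCCGGtccaaaCCGGAAGaccgt
In GRCh38.p14 these are chr2:112542411-112542440, chr6:43516952-43516981, chr16:15094292-15094321, chr1:222589915-222589944, chr2:9843467-9843496 and chr16:84187038-84187067, in that order, the minus strand applying to RRN3, TAF1A and TAF1C. In POLR1C the 2 matches overlap, being the same letters read on both strands. As deposited, the 6 genes included both the highest ratio, TAF1A, and the lowest of the si4 and si5 mean, TAF1C. TAF1C carried 2 matches in its window. The E-box CACGTG occurred in 0 of 9, against 12.9% of expressed genes, the GC box GGGCGG in 4 of 9, against 78.5%, and GGTTCGA, the start of the tRNA-gene B box, in 1 of 9, TAF1C, against 1.57%. These letters were chosen after the sequences had been seen, and a match is a description of the window, not evidence of binding.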

How the data were processed

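Libraries were made by the submitters from poly(A) RNA; the labels name a TruSeq and the methods a KAPA stranded mRNA kit. The deposited values are FPKM per gene, which the authors obtained on hg19, with Trimmomatic 0.30, TopHat2 2.1.0 and Cufflinks 2.2.1 among the tools of the submitters' processing notes; no counts were used. Groups came from the sample labels. The 10 genes and the related lists were chosen with earlier results of these data known. Named were all 10 genes, the targets, copies and overlapping rows, genes past the limit and the highest or lowest of each list.

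Ratios were log2 of FPKM (mean of si4 and si5) without a pseudocount, for genes with at least 1 FPKM in a library of the comparison and no 0; the limit was 1.5-fold. Relative depth came from the steps of low values: 1221 of 1745 genes below 0.1 FPKM (70.0%) gave whole-number proportions within 0.05%. Fragments were estimated from FPKM, GENCODE transcript length and this depth. Since only low genes gave whole numbers, no count test was made. limma 3.58.1 (R 4.3.3), with Benjamini-Hochberg adjustment, was run on log2(FPKM + 1); figures and intervals used Python 3.11.15, SciPy 1.17.1 and matplotlib 3.10.9. Alternatives were other scalings, pseudocounts, filters and limits, a correction by length and GC content, and each siRNA alone; leaving out RRN3 and scaling to equal summed FPKM were chosen after seeing the data. The fold rule, depth step and limma were tested on simulated data.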

Additional observations from a re-analysis of the deposited data

Results flagged for a closer look

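In 9 of the 72 genes examined both ZSCAN5A siRNAs lay on 1 side of the control and si1 on the other. The share over all genes was not computed, so the count cannot be called high or low. The differences were not tested, since each siRNA has 1 library. The difference in log2 ratio, si1 minus the mean of si4 and si5, was 0.082 for TAF1B (-0.07 with si4 and si5, 0.02 with si1). For TAF1B the counting intervals of si5 and of si1 against the control both included a ratio of 1. The difference was -0.10 for the chromatin remodeller SMARCA5 (0.07 and -0.03) and -0.10 for NOLC1, a snoRNP chaperone (0.09 and -0.01). It was 0.21 for the Pol III subunit POLR3E (-0.05 and 0.15). Among markers of the line it was 0.36 for NEFM (-0.19 and 0.18) and 0.26 for NEFL (-0.14 and 0.12), both neurofilament genes. It was -0.14 for RRN3P2 (0.09 and -0.06). The siRNA targets gave 1.81 for ZSCAN5A (-1.74 and 0.07) and 0.93 for ZSCAN5B (-0.86 and 0.07), the latter near the detection limit in all libraries. With libraries scaled to equal summed FPKM, the si1 ratio of TAF1B became -0.12, on the same side as that of si4 and si5.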

How the results depend on the processing

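No paired analysis was possible because the control and the ZSCAN5B siRNA had 1 library each. The members' median log2 ratio for si4 and si5 (0.11) became 0.15 with median-ratio scaling, 0.15 with the length and GC correction and -0.046 with equal summed FPKM, and ranged from 0.10 (si5 alone) to 0.14 (si4 alone). For si1 (0.10) it became -0.043 with equal summed FPKM. That scaling lowered the members above the control from 7 to 4 in both comparisons; the related groups' medians, for si4 and si5 then si1, became 0.070 and 0.17 for other Pol I components, 0.094 and 0.15 for common subunits, -0.054 and -0.0039 for rDNA regulators, -0.0025 and -0.026 for Pol II and -0.064 and 0.0015 for Pol III subunits. With median-ratio scaling they became 0.29 and 0.31 for common subunits and 0.13 and 0.16 for Pol III subunits. With 1 siRNA alone they ranged from 0.12 to 0.30 for other Pol I components, 0.24 to 0.25 for common subunits, 0.10 to 0.16 for rDNA regulators, 0.10 to 0.20 for Pol II and 0.08 to 0.11 for Pol III subunits. A limit at a ratio 25% above the control, or its inverse, gave 1 member, TAF1A, with si1. Of 140 member values under alternatives that can move a single ratio, 110 moved by less than the standard deviation of the si4 and si5 log2 ratios. Values with si4 or si5 alone fall within it by construction, and pseudocounts hardly move genes at these levels. The count is therefore not a measure of robustness. Of the 140, 15 took the other sign and the largest was 0.43 in size. One control library and 1 library per siRNA limit every ratio; the cause of the control's lower summed FPKM was not tested.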
